A study of Homo sapiens with 9 samples.

Results

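The 10 genes described here encode ligands, receptors, co-receptors and transcriptional targets of TGF-beta signalling. They were taken by their symbols from a table of 29740 gene symbols: the ligands TGFB1, TGFB2 and TGFB3, the receptors TGFBR1, TGFBR2 and ACVRL1, the co-receptors TGFBR3 and ENG, and the targets SMAD7 and ID1. All 10 were found, and all 10 passed the expression filter, which kept 14740 genes.

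RNA was sequenced from HMEC-1, an established line of human dermal microvascular endothelial cells, in a study of how trimethylamine N-oxide (TMAO), a metabolite derived from the gut microbiome, acts on endothelial cells over time. The treated groups received 50 µM TMAO for 24H or for 48H, and the third group was untreated (CTRL), with 3 libraries in each group. Treatment took place in medium with reduced serum. The study did not keep the controls of 24H and 48H apart. How long each was cultured is not known here, and the effect of TMAO cannot be told apart from that of time in this medium. HMEC-1 is a single immortalised line, and the labels do not say that the libraries of a group came from separate cultures. The methods of the study speak of independent experiments for its data in general and do not tie them to single libraries. The p-values measure the spread between these libraries, which may in part be technical. Total counts per library were 29160868 to 30069548 in CTRL (median 29793537), 32179428 to 36927373 at 24H (median 33042862) and 25205756 to 32563494 at 48H (median 25345137).

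The cells carried the RNA of endothelium. All 15 endothelial markers were measured, led by CDH5 (VE-cadherin) with a mean of 646 counts-per-million (CPM, scaled by the TMM method). CLDN5 (claudin 5) was the scarcest of them, at 1.21 to 1.89 CPM. Of 7 leukocyte markers, 2 passed the filter, and the most abundant was CD68 with a mean of 20.8 CPM. Markers of other lineages were present too. Of 8 fibroblast markers 6 passed, led by COL1A1 with a mean of 582 CPM. Of 7 smooth muscle markers 6 passed, led by SMTN with a mean of 112 CPM. Some libraries stood apart from the rest. TMAO 24H replicate 1 held an excess of ribosomal RNA, 30.7% of its counts from 5 such genes, where the other 8 libraries held 0.968% to 6.73%. In TMAO 48H replicate 3 the summed level of 6 keratinocyte markers was 12.3 CPM, against 52.3 to 103 CPM elsewhere, and their most abundant gene, KRT5, stood at 4.12 CPM against 25.1 to 53.6 CPM. The part of these differences in the results was not tested, and calls of the genes and lists described that were lost without either library are stated.

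TGF-beta ligands are secreted in a latent form and, once released, bind the type II receptor TGFBR2, which then activates a type I receptor. Through TGFBR1 (ALK5) the signal passes to SMAD2 and SMAD3, which drive genes of the extracellular matrix. Endothelial cells also carry the type I receptor ACVRL1 (ALK1) and the co-receptor endoglin (ENG), which favour signalling through SMAD1 and SMAD5 to genes such as ID1, and SMAD7 is an inhibitory SMAD that the pathway induces against itself.

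Levels differed widely among the 10 genes. Divided by the length of the longest coding transcript of each gene in GENCODE release 29, ENG had the highest level in the controls, 162.6 ± 12.9 CPM per kilobase (SD, n = 3). TGFBR2 followed at 101.9 ± 5.53, TGFB1 at 76.8 ± 5.13, ID1 at 68.7 ± 6.26 and ACVRL1 at 50.2 ± 0.982 CPM per kilobase. TGFB2 reached 19.0 ± 1.17, TGFBR1 5.65 ± 0.232, SMAD7 3.64 ± 0.254, TGFBR3 3.26 ± 0.0915 and TGFB3 1.13 ± 0.0897 CPM per kilobase. No pair of neighbours in this order overlapped in the control libraries. The order depends on the transcript chosen for each gene, since the table holds no lengths. Among the ligands TGFB1 was thus the most abundant per length, and the type II receptor TGFBR2 exceeded both type I receptors.

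Some of the 10 genes were lowest at 48H and others at 24H. At 24H, 0 of the 10 genes passed the test (edgeR's quasi-likelihood test over all 14740 genes, Benjamini-Hochberg adjusted p under 0.05), where 0.0950% of all genes tested did. At an unadjusted p under 0.05, 3 of the 10 were lower (TGFB2, SMAD7 and ID1), as were 4.47% of all genes, and 0 were higher. DESeq2 called 1 of the 10, TGFB2. At 48H, TGFB1, ACVRL1 and ENG fell and TGFBR1 rose, 4 of 10 beside 10.4% of all genes (5.14% higher and 5.29% lower). Between 24H and 48H, TGFB1 and TGFBR2 fell while TGFB2, TGFBR3 and ID1 rose, 5 of 10 beside 7.53% of all genes (3.77% in each direction). None of these changes reached 1.4-fold, the threshold the study set, which 0.0475% of all genes passed at 24H, 1.80% at 48H and 1.71% between the time-points. Without TMAO 24H replicate 1 the counts at 48H and between the time-points were 3 of 10 each, beside 1271 and 653 of 14899 genes. Without TMAO 48H replicate 3 they were 4 of 10 each, beside 1595 and 1052 of 14910 genes. Both comparisons with CTRL share the control libraries, and the comparison between time-points shares the treated ones.

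**Figure D1:**
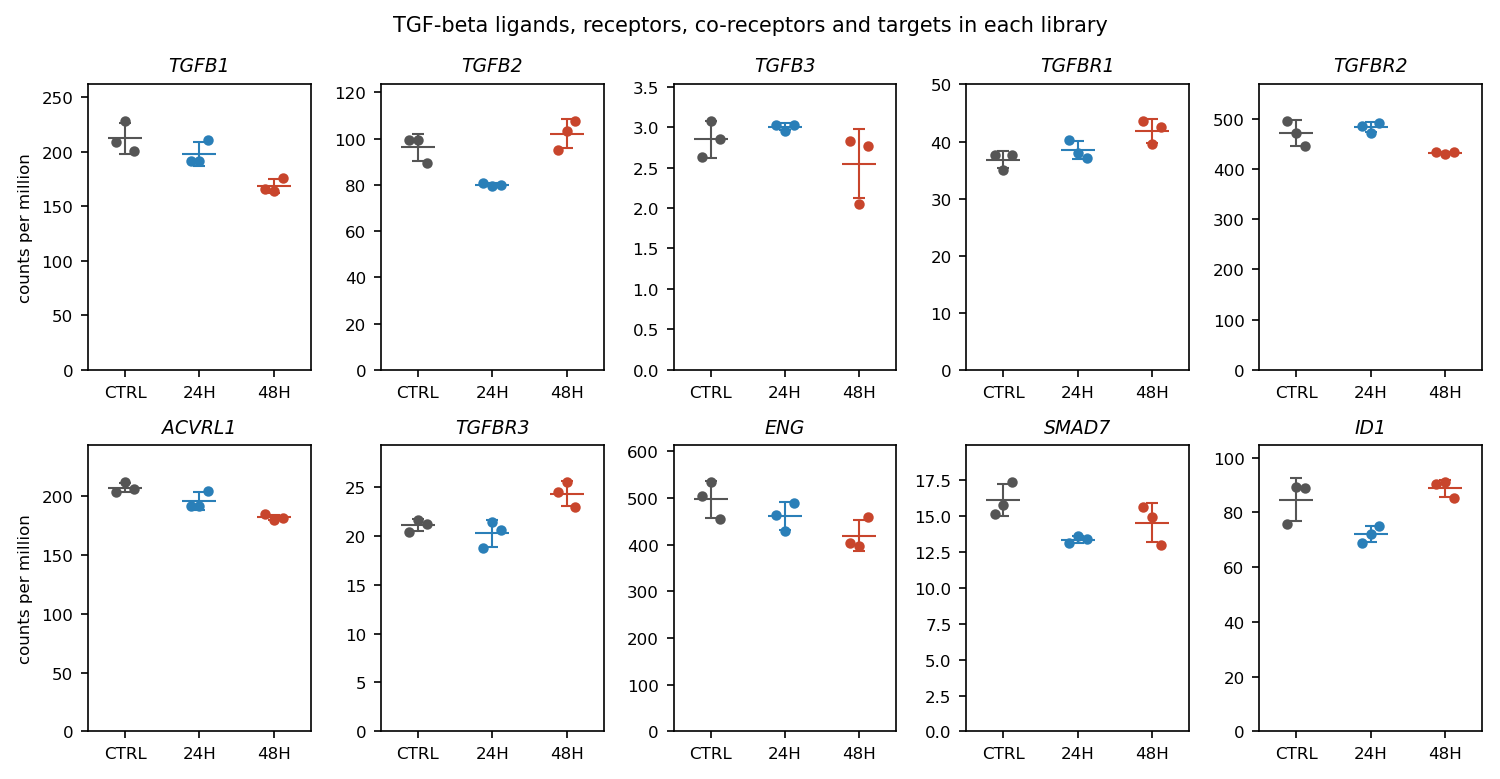
Level of each of the 10 genes in CPM (vertical axis, from 0, a scale of its own in each panel) for CTRL, 24H and 48H, with each point a library and the bars the mean ± SD of 3 libraries. TGFB1 and ACVRL1 lie below all controls at 48H, while TGFB2, SMAD7 and ID1 lie below all controls at 24H.

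TGFB1, the main ligand of the family, fell at 48H. It stood at 209, 229 and 201 CPM in the control libraries, 192, 191 and 211 CPM at 24H, and 166, 164 and 176 CPM at 48H. All 3 libraries at 48H lay below all others, and the values at 24H overlapped those of CTRL. The log2 fold change from CTRL was -0.34 at 48H (95% confidence interval -0.46 to -0.22, adjusted p = 0.00217), a level 20.8% lower, and -0.10 at 24H (adjusted p = 0.741). Without TMAO 48H replicate 3 the log2 fold change at 48H was -0.37 (adjusted p = 0.00280). The direct difference between 48H and 24H was -0.23 ± 0.055 (SE, adjusted p = 0.0195). This difference lost its call in 3 of 17 alternative fits, among them those without TMAO 24H replicate 3 or without TMAO 48H replicate 2, with adjusted p reaching 0.101.

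TGFB2, a ligand that needs TGFBR3 for efficient binding to the receptors, took another course. Its levels were 99.6, 99.6 and 89.4 CPM in CTRL, 80.7, 79.7 and 79.8 CPM at 24H, and 95.3, 103 and 108 CPM at 48H. The libraries at 24H lay below all others, and those at 48H overlapped CTRL. From 24H to 48H TGFB2 rose by 0.35 ± 0.053 on the log2 scale (SE, adjusted p = 0.00114), and it kept this call in all 17 alternative fits, with an adjusted p of at most 0.00878. Against CTRL, the log2 fold change of TGFB2 was -0.26 at 24H (adjusted p = 0.120) and 0.09 at 48H (adjusted p = 0.337). The value at 24H passed with DESeq2 (adjusted p = 0.00454), without CTRL replicate 3 and without TMAO 48H replicate 1. TGFB3, the third ligand, was scarce, with 71 to 103 counts per library and 2.06 to 3.08 CPM. Its groups gave log2 fold changes of 0.07 (95% confidence interval -0.26 to 0.41) at 24H and -0.16 (-0.50 to 0.17) at 48H, and both intervals include 0.

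The region upstream of the start site is shown for TGFB1 and TGFB2, whose levels moved in opposite directions between 24H and 48H, and for ID1, which moved as TGFB2 did. The sequences come from RefSeq on GRCh38.p14 and cover 250 bases before the annotated start, 5′ to 3′ on the strand of the gene. Of the 10 genes, 9 matched the table of promoters, with 20 windows in all. The TGFB1 window is chr19:41353923-41354172 on the minus strand, that of TGFB2 chr1:218345086-218345335 on the plus strand and that of ID1 chr20:31605039-31605288 on the plus strand. Capitals mark CAGAC, a sequence that SMAD proteins bind, and TATAAA, the TATA box, each searched on both strands. The search for the TATA box was added after the windows had been read.
TGFB1: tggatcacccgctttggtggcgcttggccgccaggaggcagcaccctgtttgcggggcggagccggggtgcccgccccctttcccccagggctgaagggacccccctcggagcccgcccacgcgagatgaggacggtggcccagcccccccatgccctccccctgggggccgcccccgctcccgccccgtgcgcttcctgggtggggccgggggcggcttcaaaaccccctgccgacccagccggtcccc
TGFB2: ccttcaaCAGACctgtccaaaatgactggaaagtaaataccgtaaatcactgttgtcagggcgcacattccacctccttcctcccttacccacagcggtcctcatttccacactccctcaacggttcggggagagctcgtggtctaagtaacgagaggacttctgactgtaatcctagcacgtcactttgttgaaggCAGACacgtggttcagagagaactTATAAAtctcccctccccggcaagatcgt
ID1: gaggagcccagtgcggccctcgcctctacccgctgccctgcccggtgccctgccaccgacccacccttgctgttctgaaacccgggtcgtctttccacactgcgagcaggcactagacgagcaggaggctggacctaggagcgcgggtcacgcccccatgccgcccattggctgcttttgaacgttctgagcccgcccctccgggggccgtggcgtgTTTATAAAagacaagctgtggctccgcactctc
The TGFB2 window held CAGAC 243 and 53 bases before the start and TATAAA 29 bases before it, counted to the first letter of each match. The ID1 window held TATAAA 31 bases before the start, overlapping its reverse complement, and the TGFB1 window held neither. The GC content was 76.8% for TGFB1, 50.4% for TGFB2 and 66% for ID1. Of 35116 promoter windows of the same length, 38% held CAGAC and 10.7% held TATAAA, against 8 and 4 of the 20 windows of the 9 genes matched, several of which belong to the same gene. These matches describe the letters in the windows only.

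A primer pair of the study bears on the names of these genes. It is listed for RT-qPCR under the name TGFBI, the gene of an extracellular matrix protein induced by TGF-beta whose symbol differs from TGFB1 in its last character. The main text of the study names TGF-β1, not TGFBI, among the genes measured by RT-qPCR. Searched for exact matches of both primers, 1 of 206694 transcripts of GENCODE release 29 contained the pair, a transcript of TGFB1, and 0 transcripts of TGFBI did.
forward primer: cccacaacgaaatctatgac
reverse primer: tgtatttctggtacagctcc
The product covers 177 bases of coding sequence and lies within chr19:41344858-41352698 of GRCh38 on the minus strand, introns included. The forward primer crosses the junction of exons 1 and 2 and the reverse primer that of exons 2 and 3. RT-qPCR values were not analysed here. In the sequencing table TGFB1 and TGFBI have separate entries, and TGFBI fell from 768 to 934 CPM in CTRL to 403 to 446 CPM at 48H, a log2 fold change of -1.06 ± 0.069 (SE, adjusted p = 3.48e-06) beside -0.34 for TGFB1.

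Among the signalling receptors the differences were small and of both signs. TGFBR1, the type I receptor for TGF-beta, stood at 37.6, 35.1 and 37.7 CPM in CTRL, 40.3, 38.1 and 37.1 CPM at 24H, and 43.6, 39.5 and 42.5 CPM at 48H. The libraries at 48H lay above all controls, with a log2 fold change of 0.19 ± 0.055 (SE, adjusted p = 0.0477). This call was lost in 15 of 17 alternative fits, among them those that left out any single library but TMAO 48H replicate 2, with adjusted p up to 0.169 (0.0934 without TMAO 48H replicate 3). TGFBR2, the type II receptor, had 496, 472 and 445 CPM in CTRL, 486, 472 and 491 CPM at 24H, and 434, 430 and 433 CPM at 48H. Its libraries at 48H lay below all others by a narrow margin. The log2 fold change was -0.12 against CTRL (adjusted p = 0.0976) and -0.16 against 24H (adjusted p = 0.0464), the latter lost in 9 of 17 alternative fits. It was lost without CTRL replicate 2 and without each of the 6 treated libraries, with adjusted p of 0.133 without TMAO 24H replicate 1 and 0.0870 without TMAO 48H replicate 3. With DESeq2 the difference of TGFBR2 from CTRL at 48H passed (adjusted p = 0.0323), as it did by edgeR without CTRL replicate 3 (adjusted p = 0.0215).

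ACVRL1, the type I receptor that endothelial cells use for BMP and TGF-beta signals, fell at 48H. Its levels were 204, 212 and 206 CPM in CTRL, 192, 191 and 204 CPM at 24H, and 184, 179 and 182 CPM at 48H. The values at 48H lay below all 6 other libraries, and those at 24H reached into the range of CTRL. The log2 fold change at 48H was -0.19 (95% confidence interval -0.27 to -0.10, adjusted p = 0.00955), a level 12.2% lower, and the call was kept in all 17 alternative fits with an adjusted p of at most 0.0489. At 24H the log2 fold change of ACVRL1 was -0.08 (adjusted p = 0.712), and the difference between the time-points was -0.11 (adjusted p = 0.124).

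The co-receptors gave values of opposite sign at 48H. ENG, the endothelial co-receptor that partners ACVRL1, had 504, 534 and 455 CPM in CTRL, 464, 430 and 489 CPM at 24H, and 403, 397 and 459 CPM at 48H. TMAO 48H replicate 3 and CTRL replicate 3 overlapped, and the log2 fold change at 48H was -0.25 ± 0.070 (SE, adjusted p = 0.0409), a level 15.6% lower. Without TMAO 48H replicate 3 the adjusted p for ENG was 0.0130, while it missed the threshold in 6 of 17 alternative fits, with a highest value of 0.163. These include the fits without CTRL replicate 1, CTRL replicate 2, TMAO 48H replicate 1 or TMAO 48H replicate 2. TGFBR3 (betaglycan), which presents TGFB2 to the receptors, had 20.4, 21.6 and 21.2 CPM in CTRL, 18.7, 21.4 and 20.6 CPM at 24H, and 24.5, 25.5 and 23.0 CPM at 48H. All libraries at 48H lay above all others. TGFBR3 rose from 24H to 48H by 0.26 ± 0.067 on the log2 scale (SE, adjusted p = 0.0298), and this call was lost in 5 of 17 alternative fits, with an adjusted p of 0.135 without TMAO 24H replicate 1. It was lost as well without TMAO 24H replicate 3, TMAO 48H replicate 1 or TMAO 48H replicate 2. Against CTRL at 48H its log2 fold change was 0.20 (adjusted p = 0.0676, and 0.0479 without TMAO 48H replicate 3).

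Both target genes had their lowest mean at 24H. ID1, an inhibitor of helix-loop-helix factors that ACVRL1 signalling induces, had 75.8, 89.2 and 89.1 CPM in CTRL, 68.9, 72.1 and 75.0 CPM at 24H, and 90.3, 91.0 and 85.3 CPM at 48H. The libraries at 24H lay below all others, although CTRL replicate 1 was close to them. From 24H to 48H ID1 rose by 0.30 ± 0.061 on the log2 scale (SE, adjusted p = 0.00797), and the call was kept in all 17 alternative fits with an adjusted p of at most 0.0455. Against CTRL the log2 fold change of ID1 was -0.23 at 24H (adjusted p = 0.340) and 0.07 at 48H (adjusted p = 0.518). SMAD7 had 15.2, 15.8 and 17.4 CPM in CTRL, 13.1, 13.6 and 13.4 CPM at 24H, and 15.6, 15.0 and 13.0 CPM at 48H. Its libraries at 24H lay below the controls, with a log2 fold change of -0.27 (95% confidence interval -0.45 to -0.09, adjusted p = 0.493, unadjusted p = 0.00603). At 48H SMAD7 gave -0.15 (adjusted p = 0.279), and its libraries overlapped both other groups.

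**Figure D2:**
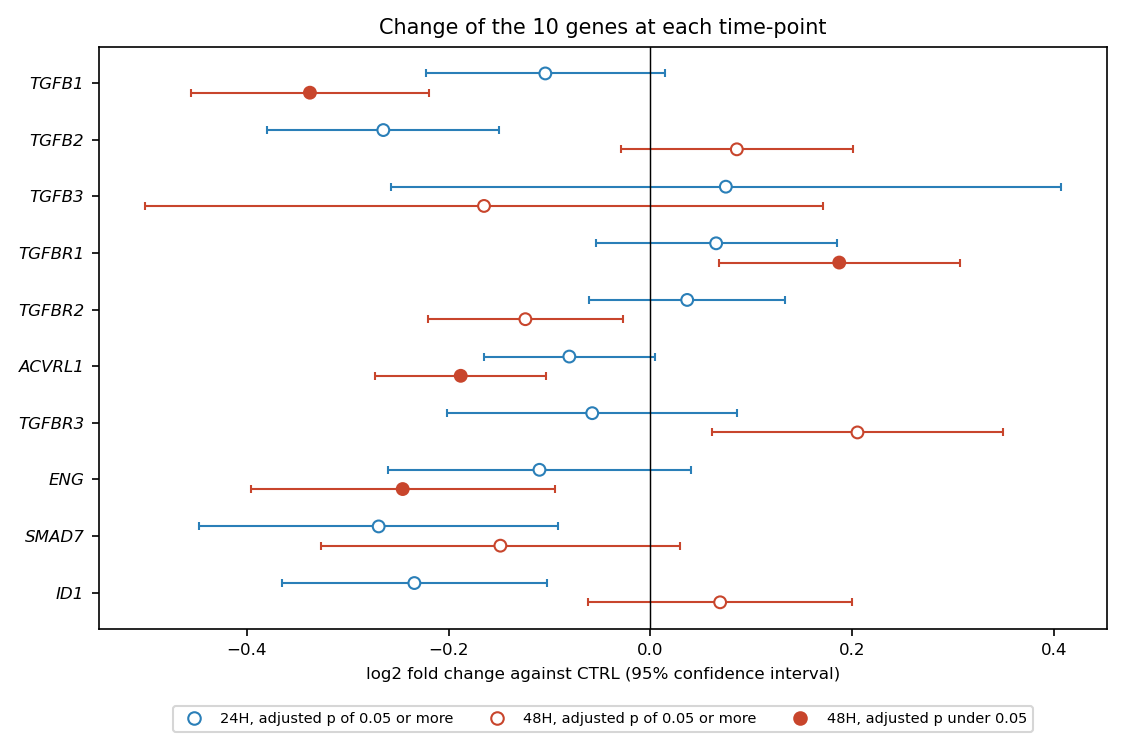
Log2 fold change against CTRL (horizontal axis) with its 95% confidence interval for each of the 10 genes at 24H and at 48H, with filled points for an adjusted p under 0.05. TGFB1, ACVRL1 and ENG lie left of 0 at 48H and TGFBR1 lies right of it, and no point is filled at 24H.

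The libraries of compared groups did not overlap for 3 of the 10 genes at 24H (14.2% of all genes), 5 at 48H (27.8%) and 7 between the time-points (27.6%). An exact permutation test on 3 libraries a side can reach no p below 0.1, so the calls rest on the fit across all genes. The median log2 fold change of the 10 genes was -0.09 at 24H and -0.14 at 48H, where the medians of all genes were -0.00042 and 0.0040.

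Several genes of the proteins that hold TGF-beta latent and release it fell at 48H. Of 16 genes for latency and activation, all measured, 8 fell and 0 rose at 48H, where 5.29% of all genes were called lower and 5.14% higher. The median over the 16 was -0.10 on the log2 scale. At 24H 0 changed by edgeR, where 0.0950% of all genes did. At an unadjusted p under 0.05, 2 of the 16 were lower at 24H, as were 4.47% of all genes, and 0 were higher. DESeq2 called 1 of the 16 at 24H, among 55 genes in all. LTBP1, which tethers latent TGF-beta to the matrix, had 137, 134 and 119 CPM in CTRL, 139, 135 and 141 CPM at 24H, and 80.7, 82.2 and 86.6 CPM at 48H. All its libraries at 48H lay below the other 6, and the log2 fold change was -0.64 ± 0.053 (SE, adjusted p = 1.98e-05). LTBP3, another latent TGF-beta binding protein, gave -0.44 (adjusted p = 0.000225), and LTBP2, of the same gene family, gave -0.63 (adjusted p = 0.000145). ITGB5, an integrin subunit that takes part in activation, gave -0.39 (adjusted p = 9.48e-05). FBN1, the fibrillin of the microfibrils that anchor these proteins, also fell, as did THBS1, ITGB8 and FURIN, the last 3 named after their values were seen. Between 24H and 48H, 7 of the 16 fell and 1 rose, beside 3.77% of all genes in each direction. The gene that rose was LTBP4 (0.19, adjusted p = 0.0354), also named after its values were seen. The 8 that fell at 48H were the same genes without TMAO 24H replicate 1 and without TMAO 48H replicate 3, and the counts between time-points were 5 lower and 0 higher without the former and 7 lower and 0 higher without the latter.

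Other ligands and extracellular inhibitors of the superfamily were partly silent. Of 25 other ligands 11 passed the filter, and 2 fell at 48H and 0 rose by edgeR and by DESeq2, where edgeR called 5.29% of all genes lower and 5.14% higher. GDF6, a BMP-type ligand, went from 15.3 to 17.9 CPM in CTRL and 15.1 to 16.5 CPM at 24H to 8.73 to 10.1 CPM at 48H, without overlap, a log2 fold change of -0.80 ± 0.085 (SE, adjusted p = 0.000100). BMP6, a BMP ligand, fell by 0.25 on the log2 scale (adjusted p = 0.00450). Of 15 extracellular inhibitors 10 passed the filter, and by edgeR 2 fell and 0 rose at 48H, beside the same shares of all genes. At an unadjusted p under 0.05, 1 of the 10 was higher, as were 13.2% of all genes. DESeq2 called 1 higher, FSTL1, named after its values were seen. GREM1, a BMP antagonist, had 48.8 to 49.9 CPM in CTRL and 35.4 to 36.1 CPM at 48H, a log2 fold change of -0.46 (adjusted p = 5.71e-05). BGN, a proteoglycan that binds TGF-beta, gave a log2 fold change of -0.46 (adjusted p = 0.00353). The median log2 fold change at 48H was -0.05 over the 11 ligands and -0.08 over the 10 inhibitors.

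Receptors of the other ligands and the SMAD proteins showed small changes. Of 10 other receptors tested, BMPR1A, a BMP type I receptor, rose at 48H (0.19, adjusted p = 0.0464), a call lost in 14 of 17 alternative fits, among them those that left out any single library but TMAO 48H replicate 3. Of 7 other SMAD genes, SMAD1 fell at 48H (-0.19, adjusted p = 0.0289), a call lost in 5 of 17 alternative fits, among them those without CTRL replicate 1, CTRL replicate 2 or TMAO 48H replicate 2. These counts, 1 of 10 and 1 of 7, stand beside 10.4% of all genes called in either direction. SMAD6, the inhibitory SMAD of the BMP branch, had 12.1, 12.2 and 12.9 CPM in CTRL, 8.84, 9.07 and 10.7 CPM at 24H, and 13.8, 12.2 and 12.4 CPM at 48H. It rose from 24H to 48H by 0.43 ± 0.090 on the log2 scale (SE, adjusted p = 0.0110, and 0.0545 without TMAO 24H replicate 1, with the call also lost without TMAO 24H replicate 2). The libraries at 24H lay below all others. Of 20 intracellular regulators tested, 3 fell at 48H and 0 rose by edgeR and by DESeq2, beside 5.29% of all genes lower and 5.14% higher by edgeR, and the median was 0.01. These were PMEPA1, a TGF-beta-induced inhibitor of SMAD activation (-0.45, adjusted p = 0.00112), FKBP1A, which keeps type I receptors inactive (-0.18, adjusted p = 0.00875), and the ubiquitin ligase SMURF2 (-0.19, adjusted p = 0.0101).

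**Figure D3:**
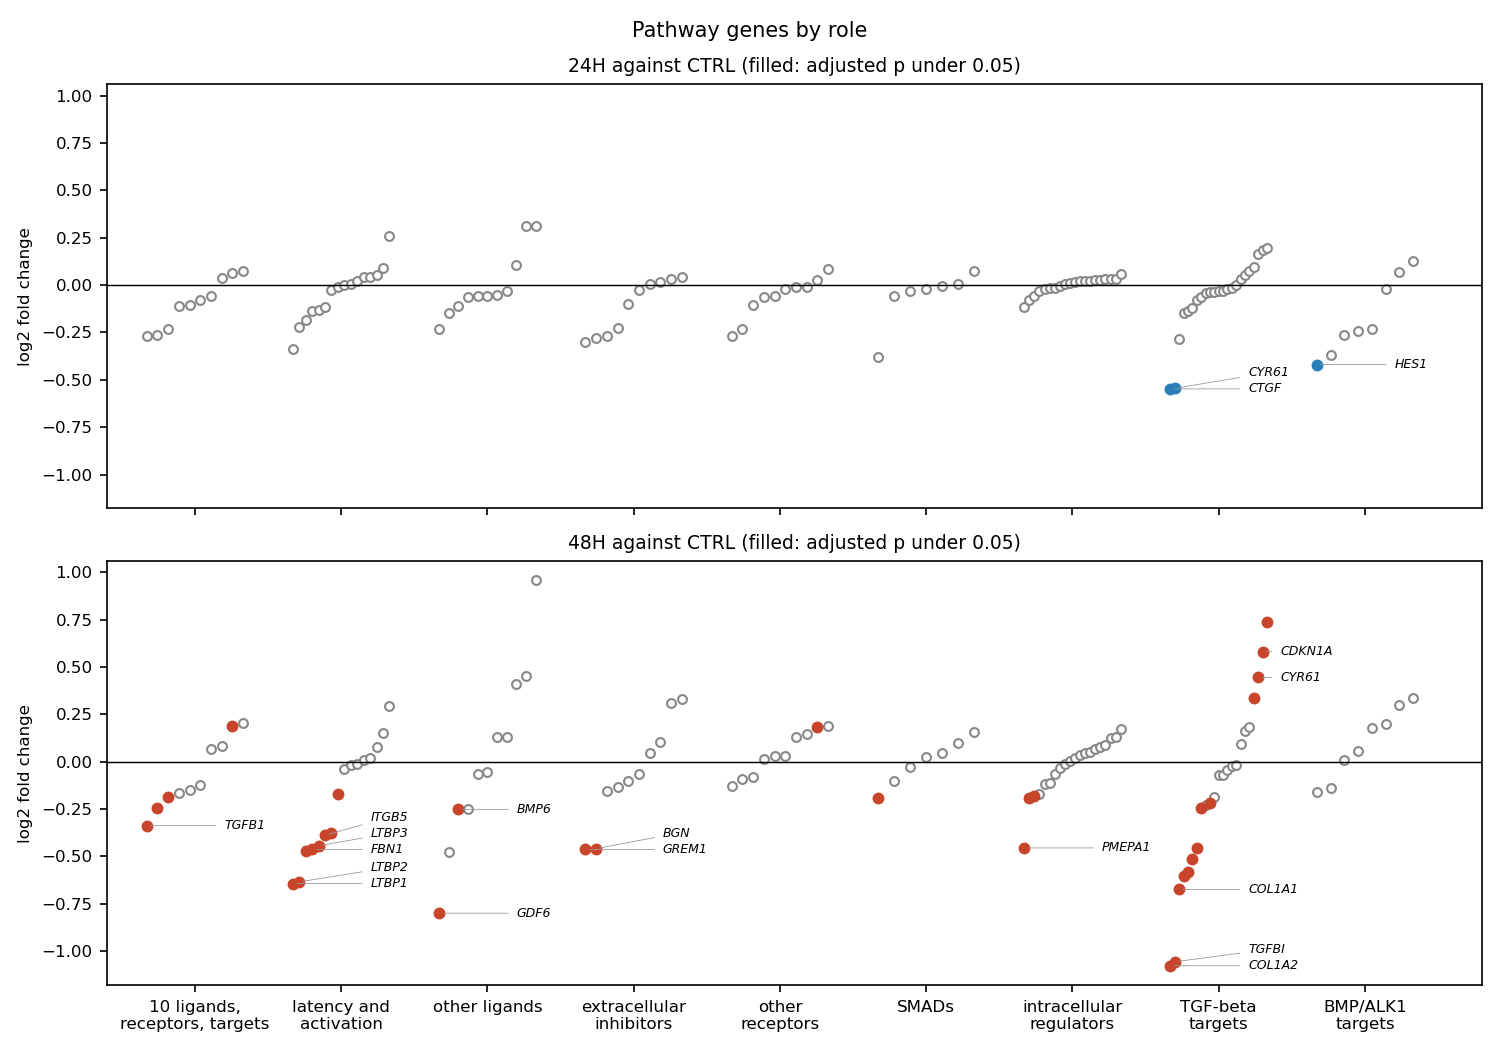
Log2 fold change against CTRL (vertical axis) of every tested gene of the 10 genes and of 8 pathway lists, ordered by value within each list, at 24H (upper panel) and 48H (lower panel), with filled points for an adjusted p under 0.05 and names for those past 0.25 in size that are among the 10 genes or were selected by the naming rule. At 24H the filled points are CTGF, CYR61 and HES1, and at 48H most filled points lie below 0.

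Genes known as targets of TGF-beta and SMAD3 moved in both directions. Of 23, all measured, 2 fell at 24H and 0 rose, where 0.0950% of all genes were called, each of them lower. At 48H 9 fell and 4 rose, beside 5.29% of all genes lower and 5.14% higher, with a median of -0.07. Those that fell include genes of the matrix. TGFBI had 934, 913 and 768 CPM in CTRL, 924, 910 and 962 CPM at 24H, and 403, 409 and 446 CPM at 48H. COL1A2, a collagen I chain, had 317, 310 and 259 CPM in CTRL, 306, 271 and 298 CPM at 24H, and 140, 129 and 151 CPM at 48H. Its log2 fold change at 48H was -1.08 ± 0.077 (SE, adjusted p = 5.95e-06), and that of COL1A1, the other collagen I chain, was -0.67 (adjusted p = 2.15e-05). In TGFBI and COL1A2 every library at 48H lay below the other 6. FN1 (fibronectin), named after its values were seen, gave -0.60 (adjusted p = 0.00223).

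CDKN1A (p21), an inhibitor of the cell cycle that TGF-beta and other signals induce, rose at 48H. It had 207, 214 and 218 CPM in CTRL, 215, 220 and 218 CPM at 24H, and 317, 322 and 317 CPM at 48H, a log2 fold change of 0.58 ± 0.036 (SE, adjusted p = 2.51e-06). CTGF and CYR61, matricellular proteins that YAP also induces, fell at 24H by 0.55 and 0.54 on the log2 scale (adjusted p = 0.00300 for each). CTGF stood at 1348 to 1438 CPM in CTRL, 910 to 1005 CPM at 24H and 1533 to 1670 CPM at 48H, without overlap of 24H with any other library. CYR61 rose above CTRL at 48H (0.44, adjusted p = 0.000751), where CTGF gave 0.18 (adjusted p = 0.0618). This value of CTGF passed in 5 of 17 alternative fits, among them DESeq2 (adjusted p = 0.00262) and the fit without TMAO 48H replicate 1. Their calls at 24H were each lost in 2 of 17 alternative fits, among them that without TMAO 24H replicate 2, with adjusted p of 0.0599 for CTGF and 0.0614 for CYR61. ACTA2 and TAGLN, contractile genes named after their values were seen, rose by 0.74 and 0.33 (adjusted p = 0.00194 and 0.00428), with ACTA2 at only 6.12 to 7.35 CPM at 48H. The counts of this list at 48H were the same without TMAO 24H replicate 1 and without TMAO 48H replicate 3.

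Several genes known as targets of BMP and ACVRL1 rose from 24H to 48H, as ID1 did. Of 10 further genes 8 passed the filter. At 24H HES1 fell by edgeR, where 0.0950% of all genes were called, and DESeq2 called HES1 and ID3 lower. At an unadjusted p under 0.05, 4 of the 8 were lower at 24H, as were 4.47% of all genes. At 48H 0 changed from CTRL by edgeR, and DESeq2 called 1, ID3. At an unadjusted p under 0.05, 4 of the 8 were higher at 48H, as were 13.2% of all genes. From 24H to 48H 5 rose, where 3.77% of all genes did. ID3 had 188, 216 and 196 CPM in CTRL, 166, 161 and 173 CPM at 24H, and 230, 210 and 239 CPM at 48H. It rose between the time-points by 0.44 ± 0.058 on the log2 scale (SE, adjusted p = 0.000345). Against CTRL, ID3 missed the threshold at 24H (adjusted p = 0.170) and 48H (adjusted p = 0.0683), and passed with DESeq2 at both (0.00781 and 0.0349) and at 48H also without CTRL replicate 2 or TMAO 48H replicate 2. ID2 rose by 0.67 (adjusted p = 0.00593), ATOH8, a helix-loop-helix factor of the BMP response, by 0.43 (adjusted p = 0.00281) and HES1 by 0.47 (adjusted p = 0.000770). ID4, named after its values were seen, rose by 0.58 (adjusted p = 0.0220). HES1, which Notch signalling also induces, had 26.8 to 28.4 CPM in CTRL, 18.9 to 21.9 CPM at 24H and 27.6 to 30.8 CPM at 48H. Its fall at 24H (-0.42, adjusted p = 0.0454) was lost in 8 of 17 alternative fits, among them those without any single library of CTRL or 24H or without TMAO 48H replicate 2 (adjusted p = 0.0553 without TMAO 24H replicate 1). Without that library 4 of the 8 rose between the time-points, and without TMAO 48H replicate 3 the count was 5. The median log2 fold change of the 8 was -0.24 at 24H and 0.12 at 48H, and 0.44 between the time-points.

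**Figure D4:**
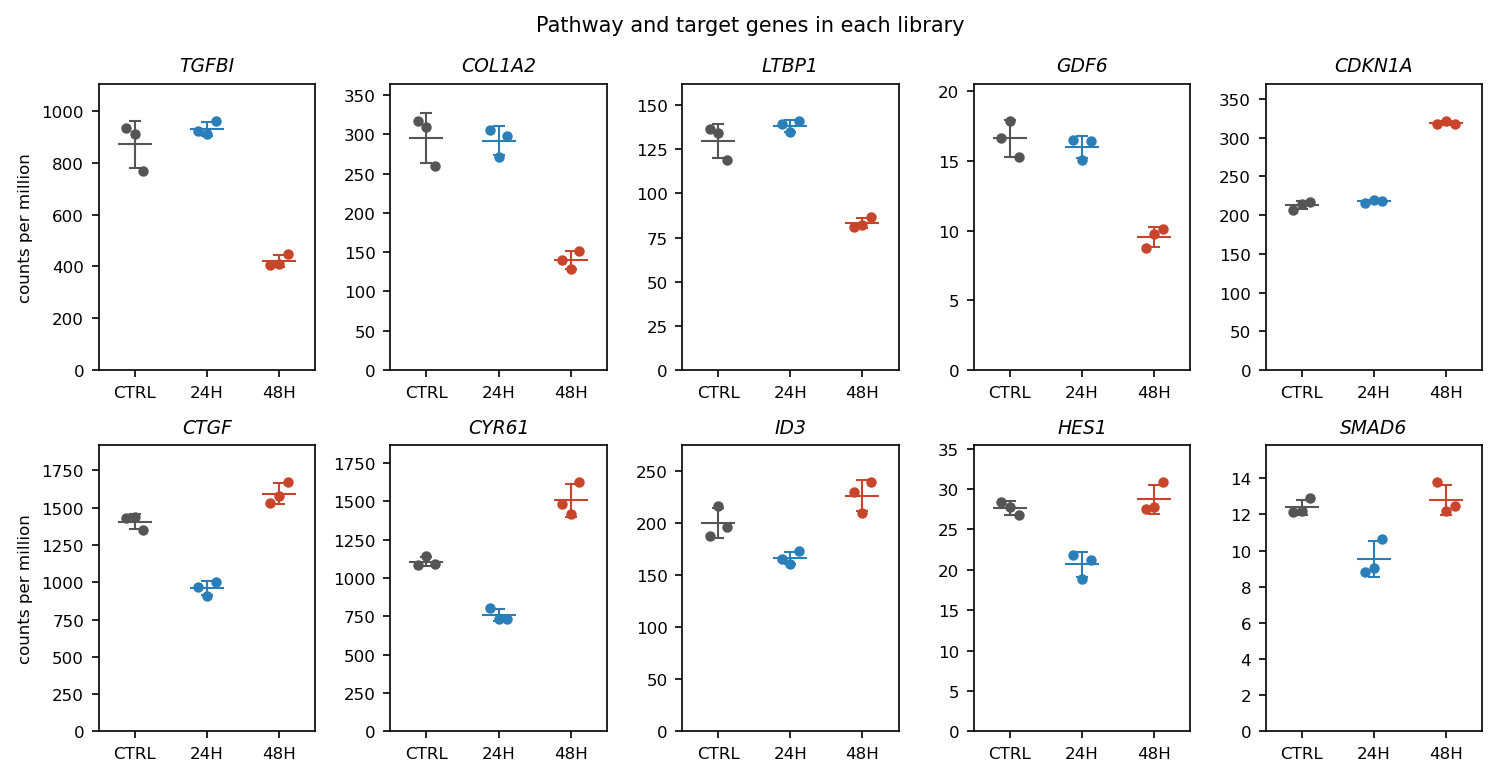
Level of 10 pathway and target genes in CPM (vertical axis, from 0, a scale of its own in each panel) for CTRL, 24H and 48H, with each point a library and the bars the mean ± SD of 3 libraries. TGFBI, COL1A2, LTBP1 and GDF6 lie lowest at 48H and CDKN1A highest, whereas CTGF, CYR61, ID3, HES1 and SMAD6 lie lowest at 24H.

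Markers of cell types moved at 48H as well. Of the 15 endothelial markers, 7 fell and 1 rose at 48H, beside 5.29% of all genes lower and 5.14% higher. Their median was -0.18, and their summed level was 2645 to 2934 CPM in CTRL, 2655 to 2787 CPM at 24H and 2336 to 2521 CPM at 48H. At 48H the 15 ran from -0.33 to 0.39 on the log2 scale, with 10 below 0 and 5 above. TIE1, an endothelial receptor, gave -0.26 (adjusted p = 0.00569) and CDH5 -0.26 (adjusted p = 0.0181), beside -0.19 for ACVRL1 and -0.25 for ENG. With DESeq2, without TMAO 24H replicate 1 and without TMAO 48H replicate 3, the endothelial marker that rose was MMRN1. In RNA from bulk cells, fewer cells of a type and less RNA per cell cannot be told apart. VWF had 118, 114 and 101 CPM in CTRL, 86.1, 77.0 and 86.5 CPM at 24H, and 106, 118 and 131 CPM at 48H, lowest at 24H as TGFB2 was, and its rise from 24H to 48H was 0.51 (adjusted p = 0.00112). Of 8 fibroblast markers 6 passed the filter and 2 fell, COL1A1 (mean 582 CPM over all libraries) and COL1A2, which stand in the target list too, and 1 rose, FBLN1, a call lost without TMAO 48H replicate 3. Their summed level was 967 to 1127 CPM in CTRL and 627 to 685 CPM at 48H, while DCN and LUM did not pass the filter. Of 7 smooth muscle markers 6 passed, led by SMTN (mean 112 CPM), and 3 rose and 1 fell. With DESeq2, without TMAO 24H replicate 1 and without TMAO 48H replicate 3, the marker that fell was SMTN. Of those that rose, 2 did so without TMAO 24H replicate 1 (ACTA2 and TAGLN), and the call of LMOD1 was lost. FBLN1 and LMOD1 were named after their values were seen. Of 5 lymphatic markers 3 passed and 2 fell, led by PDPN (mean 90.8 CPM), and of the leukocyte and keratinocyte markers 0 changed by edgeR, with 0 and 1 at an unadjusted p under 0.05. The part of these markers in the changes of the 10 genes was not tested.

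The genes whose levels ran most like those of the 10 over the 9 libraries were ranked by Pearson's r of log2 CPM. These values describe the libraries, which share groups and depth, and carry no test. For TGFB1 they were SLC29A1, a nucleoside transporter (r = 0.972), BMP6 (0.971) and CDC42EP3 (0.971). For TGFB2 they were NOTCH3, a Notch receptor (0.989), SCMH1 (0.982) and VWF, the von Willebrand factor (0.981). For ACVRL1 they were LEPREL2 (0.987), FAM43A (0.980) and TRIM28 (0.975), and for ENG PPAP2B (0.993), TTYH3 (0.973) and PIGG (0.973). For TGFBR1 they were SP3 (0.965), ANKRD44 (0.963) and ARPP19 (0.956), and for TGFBR2 GALNT10 (0.989), NT5E (0.983) and SEC24D (0.972). For TGFBR3 they were PLS1 (0.970), GCH1 (0.968) and EML2 (0.966), and for ID1 IRF2BPL (0.954), DYNLRB1 (0.938) and ATOH8 (0.938). Among the 10 themselves, TGFB1 ran closest to ACVRL1 (r = 0.956) and ENG (0.918), and opposite to TGFBR1 (-0.863), whereas ID1 ran with TGFBR3 (0.784) and TGFB2 (0.714).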

How the data were processed

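RNA from 9 HMEC-1 libraries was sequenced, 3 in each group. The authors processed the reads with the nf-core RNAseq pipeline (Trim Galore is named in the submitters' processing notes) and deposited expected counts, estimated counts per gene symbol without normalisation. The aligner, quantifier, genome build and annotation are not given in the sources used here, nor is strandedness, so reads of overlapping antisense genes cannot be told apart. Groups and replicate numbers came from the labels.

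Expected counts were rounded to whole numbers. With edgeR 4.0.16 in R 4.3.3, genes were filtered (filterByExpr, 14740 kept), scaled by TMM and fitted over all 9 libraries by the quasi-likelihood method (glmQLFit, legacy = FALSE), with Benjamini-Hochberg adjustment over all genes tested. A gene passed at an adjusted p-value under 0.05. Standard errors and 95% confidence intervals came from the F statistic. Total counts per library were 25205756 to 36927373, and the biological coefficient of variation was 0.0744. The procedure was tested on simulated data.

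The 10 genes and all lists were chosen with earlier results of these data known. Of each pathway list, at most 4 genes per comparison with the smallest adjusted p-values under 0.05 were named, as well as the 3 genes most like each of the 10 that passed, any endothelial marker and the most abundant gene of each other marker list. Other genes are marked as named after their values were seen. Genes shared by lists (COL1A1, COL1A2, ACTA2, TAGLN, DCN) count in each.

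Alternatives were DESeq2 1.42.0, RLE factors, no filter, a minimum of 10 counts per library, the 2 groups compared only, the legacy fit, the replicate number as a block, removal of ribosomal RNA genes, a 1.4-fold threshold and leaving out each library. List counts without the libraries that stood apart were added after the data were seen. Promoter windows came from RefSeq (GRCh38.p14) and transcripts from GENCODE release 29, searched with Python 3.11.15. Promoters of ACVRL1, proteins, RT-qPCR and metabolite data were not used here, and 1 gene counted in a list is not reported here.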

Additional observations from a re-analysis of the deposited data

Results flagged for a closer look

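The level at 48H differed from the level at 24H, by the direct test between the time-points (edgeR, Benjamini-Hochberg adjusted p under 0.05), for 5 of the 10 genes and for 24 list genes selected by the naming rule, 29 in all. Of all genes tested, 7.53% passed this test. The naming rule selects genes by small adjusted p, in this comparison too, so the count of 24 cannot be set against that share. Values in parentheses are the log2 fold change at 48H minus that at 24H. Both fold changes are measured against the same controls, which cancel in this difference. It therefore compares treated cells only, and a later effect of TMAO cannot be told apart from longer time in this medium. Of the 10 genes, TGFB1 (-0.23) and TGFBR2 (-0.16) were lower at 48H, and TGFB2 (0.35), TGFBR3 (0.26) and ID1 (0.30) were higher.

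Of the list genes selected by the rule, those lower at 48H than at 24H were LTBP1 (-0.73), ITGB5 (-0.39), LTBP2 (-0.61), LTBP3 (-0.31), FBN1 (-0.51), GDF6 (-0.74), BMP6 (-0.19), GREM1 (-0.48), BGN (-0.44), PMEPA1 (-0.34), FKBP1A (-0.21), SMURF2 (-0.16), TGFBI (-1.15), COL1A2 (-1.06) and COL1A1 (-0.59). Those higher at 48H were BMPR1A (0.25), SMAD6 (0.43), CTGF (0.73), CYR61 (0.99), CDKN1A (0.55), HES1 (0.47), ID3 (0.44), ATOH8 (0.43) and ID2 (0.67). Without TMAO 24H replicate 1 the calls of BMP6 (adjusted p = 0.0933), BMPR1A (0.0746), SMAD6 (0.0545) and SMURF2 (0.130) were lost, and without TMAO 48H replicate 3 that of SMURF2 (0.0701). BMP6 and SMURF2 also lost theirs without TMAO 24H replicate 3 or TMAO 48H replicate 2, and SMAD6 without TMAO 24H replicate 2.

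Other list and marker genes described here, outside that rule, passed the same test. FN1 (-0.57), THBS1 (-0.36), FURIN (-0.16), TIE1 (-0.22) and PDPN (-0.69) were lower at 48H than at 24H, and LTBP4 (0.19), TAGLN (0.47), ACTA2 (0.54), ID4 (0.58), FBLN1 (0.46) and VWF (0.51) were higher. Of these, the calls of THBS1, FURIN, TIE1, LTBP4 and ID4 were lost without TMAO 24H replicate 1, and that of LTBP4 also without TMAO 48H replicate 3. Over whole lists, beside 3.77% of all genes called in each direction, 8 of the 23 targets of TGF-beta and SMAD3 were lower and 6 higher, against 7 and 5 without TMAO 24H replicate 1 and 8 and 5 without TMAO 48H replicate 3. Of the 15 endothelial markers, 7 were lower and 2 higher, against 2 and 2 without TMAO 24H replicate 1 and 5 and 2 without TMAO 48H replicate 3. No group here has 4 or more libraries, so no test for single outlying libraries was made.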

How the results depend on the processing

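Over 17 alternative fits of each of the 10 genes (DESeq2, RLE factors, no filter, 10 counts in every library, the 2 groups compared only, the legacy fit, the replicate block, removal of ribosomal RNA genes and leaving out each of the 9 libraries), direction and side of the threshold were kept in 166 of 170 values at 24H, 145 of 170 at 48H and 153 of 170 between the time-points. At 48H 21 values lost their call and 3 gained one, between the time-points 17 lost it, and at 24H 3 gained one. TGFB1 and ACVRL1 at 48H, and TGFB2 and ID1 between the time-points, kept their calls in all 17. No scaling moved the median log2 fold change of all genes by as much as 0.01. Each scaling takes most genes as unchanged, so this median cannot reveal a shift shared by most genes. The cause of the changes below was not tested.

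The genes called at 24H, 14 in number, were 55 with DESeq2, 22 with the 2 groups compared only and 7 at 1.4-fold, and DESeq2 called 1 of the 10 genes, TGFB2. At 48H, 1537 genes became 981 with the 2 groups compared only and 265 at 1.4-fold, and the 4 of the 10 genes became 2 and 0. Between the time-points, 1110 genes became 252 and the 5 of the 10 genes became 0 at 1.4-fold.

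Leaving out a library at a time gave 0 to 24 genes and 0 to 1 of the 10 genes at 24H, 700 to 1595 genes and 2 to 4 of the 10 genes at 48H, and 558 to 1281 genes and 2 to 5 of the 10 genes between the time-points. The lowest counts of genes came without TMAO 24H replicate 2 at 24H, without TMAO 48H replicate 2 at 48H and without TMAO 24H replicate 3 between the time-points. The 10 genes gave 2 calls at 48H without CTRL replicate 1, CTRL replicate 2 or TMAO 48H replicate 1. Signs turned in these fits for values near 0 that passed no test: at 24H BGN (-0.098 to 0.042), COL1A2 (-0.10 to 0.037), GREM1 (-0.012 to 0.033), ITGB5 (-0.020 to 0.025), LTBP2 (-0.10 to 0.026) and TGFBR2 (-0.00047 to 0.075), and at 48H ID1 (-0.0048 to 0.11) and SMAD6 (-0.010 to 0.080).

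The labels do not say whether libraries with the same replicate number belong together. Deviations from the group means correlated at -0.12 to 0.091 for libraries with the same number and -0.10 to 0.16 for different numbers. These ranges overlap, and with 3 libraries a group they cannot exclude a pairing. With the replicate block, the called genes numbered 1 at 24H, 948 at 48H and 731 between the time-points, and those among the 10 genes numbered 0, 2 and 3. Of the 10 genes and the list genes selected by the naming rule, those that lost a call with it were CTGF (adjusted p = 0.0531), CYR61 (0.0575) and HES1 (0.173) at 24H, TGFBR1 (0.0616), ENG (0.0880), BMPR1A (0.0978) and SMAD1 (0.0562) at 48H, and TGFB1 (0.0542), TGFBR2 (0.104), BMP6 (0.0724) and SMURF2 (0.0582) between the time-points.

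Of the 10 genes, TGFB3 had the fewest counts, 71 to 103 per library, and the widest confidence intervals in both comparisons with CTRL.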
